A study of Mus musculus with 16 samples.

Results

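A set of 10 transcription factor genes of progenitor and embryonic cells was followed through myotube formation and the induction of msx2 in mouse muscle cells. They are Pax3, Pax7, Sox4, Sox8, Sox9, Sox11, Tbx3, Klf4, Twist1 and Twist2, taken by gene symbol from the deposited read counts. All 10 were among the 19799 genes with a symbol and among the 16245 genes with enough reads to test. The cells were pmi28, a mouse myoblast line whose cells fuse into multinucleated myotubes. One derived line, called the msx2 line here, carried doxycycline-inducible msx2 together with GFP, and the GFP line carried inducible GFP alone, so that a GFP transgene was common to all groups. In each line 2 libraries came from uninduced myoblasts, 3 from uninduced isolated myotubes and 3 from isolated myotubes exposed for 24 h to 2 µg/ml of doxycycline. Myotubes had formed over 3 days in 10% horse serum, were isolated on a mesh and were kept for 3 days with AraC, a cytostatic drug that acts on dividing cells. Doxycycline was given in growth medium with 20% fetal bovine serum, whereas the medium of uninduced myotubes is not stated in the labels. Whether a line was 1 clone or a pool is also not stated, and the labels do not tie replicates to separate cultures. P-values therefore cover only how much these libraries vary, which may be technical.

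Pax3 and Pax7 are paired-box factors. Both specify muscle progenitors in the embryo, and Pax7 marks the satellite cells of adult muscle, which can divide, become myoblasts and fuse. Sox genes encode factors with an HMG box and fall into groups of close relatives: Sox4 and Sox11 belong to the SoxC group of neural and mesenchymal progenitors, and Sox8 and Sox9 to the SoxE group, of which Sox9 directs cartilage formation. Tbx3 is a T-box repressor of limb and heart development, Klf4 is a zinc-finger factor used in reprogramming to pluripotency, and Twist1 and Twist2 are basic helix-loop-helix factors of mesenchyme that hold back muscle differentiation. Msx2 is a homeodomain repressor active in undifferentiated mesenchyme of the limb bud and skull.

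Promoters are shown for 4 of the genes, 2 whose level rose and 2 whose level fell on msx2 induction, as examples of the windows searched for homeodomain and basic helix-loop-helix motifs. Each runs from 250 bases before to 50 bases after the annotated start in RefSeq (build GRCm38.p6), 5′ to 3′ on the gene's strand. Of the 10 genes 7 had an entry in the promoter set used. Pax3, Sox9 and Tbx3 had none, so Sox9 and Tbx3, which rose on induction, were not searched. Capitals mark CAGCTG, a palindromic E-box of the kind bound by basic helix-loop-helix factors. Pax7 lies at chr4:139832919-139833218 and Sox8 at chr17:25570637-25570936, Klf4 at chr4:55532426-55532725 and Sox11 at chr12:27342669-27342968, all on the minus strand.
Pax7: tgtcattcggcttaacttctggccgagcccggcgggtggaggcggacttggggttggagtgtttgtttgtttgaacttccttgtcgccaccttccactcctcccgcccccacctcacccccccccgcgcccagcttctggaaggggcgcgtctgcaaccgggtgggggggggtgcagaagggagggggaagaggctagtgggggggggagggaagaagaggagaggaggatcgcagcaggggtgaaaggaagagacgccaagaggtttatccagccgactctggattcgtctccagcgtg
Sox8: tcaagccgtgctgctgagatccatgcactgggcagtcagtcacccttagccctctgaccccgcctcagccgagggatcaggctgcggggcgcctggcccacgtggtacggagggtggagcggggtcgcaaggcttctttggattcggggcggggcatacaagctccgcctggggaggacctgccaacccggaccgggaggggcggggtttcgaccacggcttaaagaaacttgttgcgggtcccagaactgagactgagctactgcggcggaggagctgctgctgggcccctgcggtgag
Klf4: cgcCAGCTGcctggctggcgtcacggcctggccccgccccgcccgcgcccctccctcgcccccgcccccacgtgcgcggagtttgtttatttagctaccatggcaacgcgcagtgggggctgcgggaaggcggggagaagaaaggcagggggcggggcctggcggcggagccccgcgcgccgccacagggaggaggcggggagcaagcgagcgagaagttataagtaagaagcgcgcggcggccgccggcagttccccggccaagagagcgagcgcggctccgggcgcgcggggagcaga
Sox11: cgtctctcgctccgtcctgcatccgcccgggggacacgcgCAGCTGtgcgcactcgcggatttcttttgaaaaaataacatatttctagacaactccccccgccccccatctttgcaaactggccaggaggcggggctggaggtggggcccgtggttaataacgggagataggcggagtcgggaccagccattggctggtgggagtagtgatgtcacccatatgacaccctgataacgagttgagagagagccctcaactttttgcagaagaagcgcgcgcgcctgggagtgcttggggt
CAGCTG was present once in the promoters of Klf4, Sox11 and Sox4, with its first base at -247, -210 and -211 from the start, and not in those of Pax7, Sox8, Twist1 or Twist2. Of all 32851 promoters of this length, 16.3% held it, and 7 promoters are too few to set against that share. Sox4, which held it, was not called on msx2 induction, so the printed examples do not tie the motif to a direction. TAATTG, a core motif of Msx-type homeodomains, was read on both strands as TAATTG or CAATTA. It was in none of the 7 promoters and in 8.00% of all promoters, and 7 are too few to tell these apart. The G and C content of the 7 ran from 52% for Sox4 to 74.3% for Klf4, against a median of 52.7% over all promoters. The printed promoters held 17 CpG dinucleotides for Pax7, 21 for Sox8, 40 for Klf4 and 21 for Sox11, against a median of 7 over all promoters. These matches describe letters in a window and were not measured as binding.

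Levels are given as CPM, read counts in proportion to the composition-scaled library size, per library or as mean ± SD of a group's libraries. Fold changes are edgeR log2 values ± SE, and a gene is said to have risen or fallen where its Benjamini-Hochberg adjusted p over all tested genes, from edgeR's two-sided quasi-likelihood test, was under 0.05. Total counts per library lay between 19784873 and 33092666, with a median of 23777021. Msx2 itself checked the labels: it stood at 13.7 ± 1.94 CPM (SD, n = 3) in uninduced and 1440 ± 87.1 CPM (n = 3) in induced myotubes of the msx2 line, and at 0.803 to 1.59 CPM in all 8 GFP-line libraries. Msx2 was also higher in uninduced msx2-line cells than in GFP-line cells, by 3.53 ± 0.16 on the log2 scale in myoblasts and 3.62 ± 0.13 in myotubes. The 12 myotube markers summed to 444 to 1283 CPM in myoblasts and 30033 to 36891 CPM in uninduced myotubes, and the 15 markers of cycling cells to 2589 to 3099 CPM and 168 to 271 CPM, so both cell types carried the markers of their labels. In such bulk libraries, fewer cells of a type and less RNA per cell cannot be told apart.

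**Figure D1:**
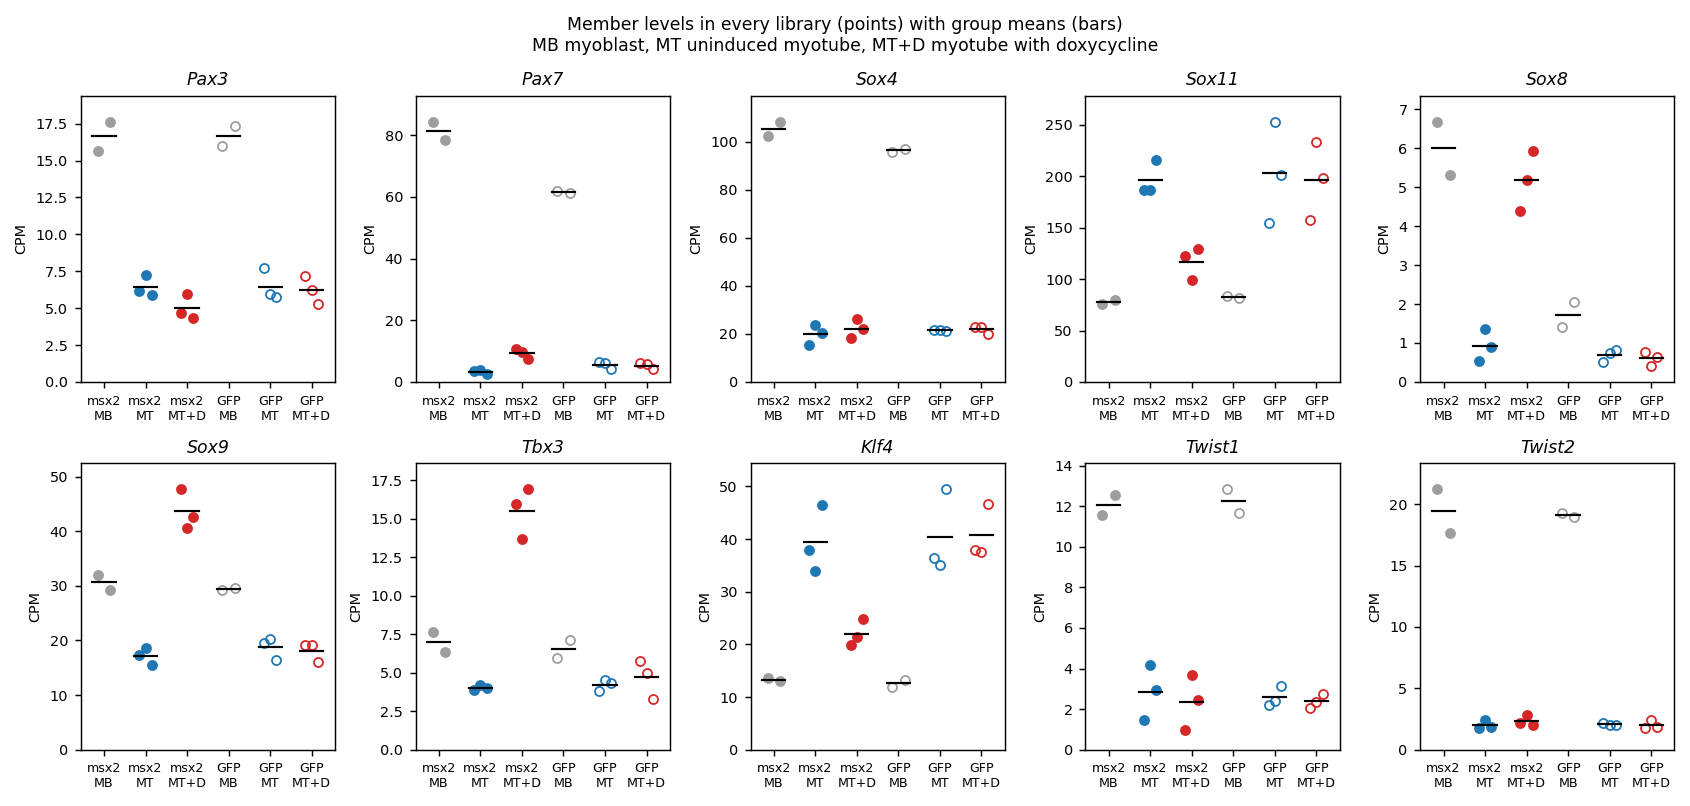
CPM of the 10 genes in each of the 16 libraries (points), with the mean of each group as a bar and each panel on its own linear axis from 0. Pax7, Sox8, Sox9 and Tbx3 stood higher in the 3 doxycycline-treated msx2-line libraries than in any other myotube library. Pax3, Pax7, Sox4, Twist1 and Twist2 were highest in the 4 myoblast libraries.

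Differentiation was examined first, as uninduced myotubes against myoblasts of the same line. Of the 10 genes 8 fell and 2 rose in each line separately. Their myotube and myoblast libraries never overlapped, but the share of all tested genes without such overlap was not counted. The background was high: 79.8% of all tested genes changed in the msx2 line, 40.8% upward and 39% downward, and 77.7% in the GFP line, 39.8% upward and 37.9% downward. The 10 genes had a median log2 change of -1.71 in the msx2 line and -1.33 in the GFP line, against 0.08 and 0.06 over all tested genes.

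The paired-box genes both fell. Pax7 was measured at 84.4 and 78.6 CPM in msx2-line myoblasts and at 3.69, 3.73 and 2.49 CPM in myotubes. The GFP line had 62.0 and 61.4 CPM in myoblasts and 6.52, 6.12 and 4.09 CPM in myotubes. Pax7 thus fell by 4.64 ± 0.20 on the log2 scale in the msx2 line and by 3.49 ± 0.19 in the GFP line, 24.7-fold and 11.1-fold by the ratio of means. The fall was larger in the msx2 line by 1.15 ± 0.28 on the log2 scale (adjusted p = 0.0226, edgeR), although this call was lost when any of 6 of the 10 libraries was left out, with adjusted p between 0.0525 and 0.104. Those libraries were replicate 1 of the msx2-line myoblasts, replicate 3 of the uninduced msx2-line myotubes, both GFP-line myoblast libraries and replicates 1 and 2 of the uninduced GFP-line myotubes. Pax7 was the 1 gene of the 10 whose change with differentiation differed between lines, against 8.28% of all tested genes, 4.01% upward and 4.27% downward.

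Pax3, the paralog of Pax7, was measured at 15.6 and 17.6 CPM in msx2-line myoblasts and 16.0 and 17.3 CPM in GFP-line myoblasts. Its myotube libraries lay between 5.91 and 7.22 CPM in the msx2 line and between 5.77 and 7.69 CPM in the GFP line. The fall was 1.37 ± 0.16 on the log2 scale in the msx2 line and 1.38 ± 0.16 in the GFP line, with no detectable difference between them (adjusted p = 0.993, edgeR). Pax3 libraries of the myotubes overlapped between the lines, and GFP-line myotubes given doxycycline had 7.18, 6.22 and 5.30 CPM.

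The 2 SoxC genes went in opposite directions. Sox4 fell from 105 ± 4.20 CPM (n = 2) to 19.8 ± 4.37 CPM (n = 3) in the msx2 line, a log2 change of -2.40 ± 0.14, and by 2.17 ± 0.14 in the GFP line. Sox11 rose from 75.4 and 79.5 CPM to 187, 187 and 216 CPM in the msx2 line, a log2 change of 1.34 ± 0.20. In the GFP line Sox11 rose by 1.30 ± 0.20, from 83.2 and 81.5 CPM to 154, 253 and 202 CPM, a wider spread than in the msx2 line.

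The 2 SoxE genes fell. Sox9 was measured at 32.0 and 29.3 CPM in msx2-line myoblasts and at 17.3, 18.7 and 15.5 CPM in myotubes, a fall of 0.84 ± 0.11 on the log2 scale, beside 0.65 ± 0.11 in the GFP line. Sox8 had few reads, 78 in the 3 uninduced msx2-line myotube libraries together. Its level went from 6.68 and 5.30 CPM to 0.549, 1.35 and 0.903 CPM in the msx2 line, a fall of 2.63 ± 0.27, and from 1.40 and 2.05 CPM to 0.506, 0.738 and 0.824 CPM in the GFP line, a fall of 1.28 ± 0.33. The difference between these falls was not called (-1.36 ± 0.44, adjusted p = 0.0681, edgeR).

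Tbx3 fell by 0.79 ± 0.18 in the msx2 line, from 7.00 to 4.02 CPM, and by 0.62 ± 0.18 in the GFP line, from 6.52 to 4.22 CPM. Without replicate 2 of the GFP-line myoblasts the GFP-line falls of Tbx3 and Sox8 were no longer called, with adjusted p of 0.0783 and 0.0515. Klf4 rose with Sox11: it was measured at 13.6 and 13.0 CPM in msx2-line myoblasts and at 37.9, 33.9 and 46.4 CPM in myotubes, a rise of 1.57 ± 0.17, beside 1.68 ± 0.18 in the GFP line. Twist1 fell from 12.1 to 2.86 CPM in the msx2 line (-2.04 ± 0.36) and from 12.2 to 2.58 CPM in the GFP line (-2.23 ± 0.37). Twist2 fell from 19.4 to 2.02 CPM in the msx2 line (-3.26 ± 0.16) and from 19.1 to 2.08 CPM in the GFP line (-3.20 ± 0.16), which made it, after Pax7, the gene of the 10 with the largest fall in the msx2 line.

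**Figure D2:**
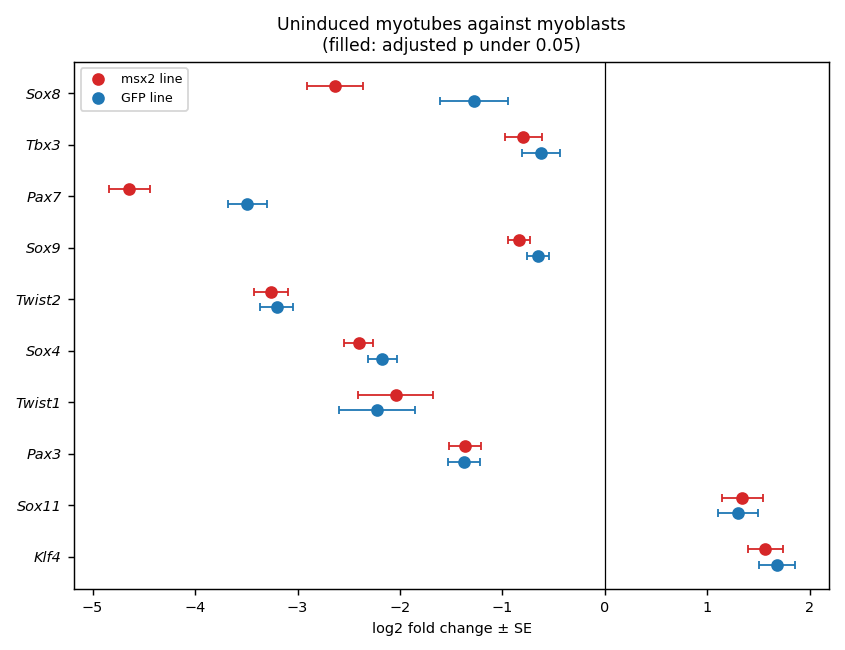
Log2 fold change ± SE of uninduced myotubes against myoblasts for the 10 genes, by line, with filled points where the adjusted p was under 0.05. All 20 points are filled; Sox11 and Klf4 lie between 1.30 and 1.68, and the other genes lie below 0, with Pax7 at -4.64 and -3.49.

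Induction of msx2 was then compared with doxycycline in the GFP line, which received the same treatment without msx2. In the msx2 line 4 genes rose, Sox8, Tbx3, Pax7 and Sox9, 2 fell, Klf4 and Sox11, and 4 did not pass, where 32.5% of all tested genes changed, 16.2% upward and 16.3% downward. The median log2 change of the 10 genes was 0.18, against -0.01 over all tested genes. In the GFP line none of the 10 passed edgeR's test, none had an unadjusted p under 0.05 and DESeq2 called none, against 5 genes called, or 0.0308%, of all tested, every one of them upward (0% downward). The log2 changes there ran from -0.25 for Sox8 to 0.15 for Tbx3. Msx2 induction and msx2-line differentiation share the 3 uninduced myotube libraries, so their values are given side by side and their opposite signs are not independent of one another.

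Pax7 was measured at 10.6, 9.68 and 7.47 CPM in induced msx2-line myotubes, against 3.69, 3.73 and 2.49 CPM uninduced. Every induced library was above every uninduced one. The rise was 1.499 ± 0.201 on the log2 scale (adjusted p = 4.3e-05, edgeR), or 2.80-fold by the ratio of means. Pax7 in the GFP line stood at 6.52, 6.12 and 4.09 CPM without and 6.04, 5.72 and 4.13 CPM with doxycycline, and the inductions differed by 1.55 ± 0.29 (adjusted p = 0.00151, edgeR). Pax7 in induced msx2-line myotubes remained 8.81-fold below msx2-line myoblasts (-3.14 ± 0.18).

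The starting level of Pax7 bears on that ratio. All 3 uninduced msx2-line myotube libraries lay below all 3 GFP-line ones, by 0.75 ± 0.21 on the log2 scale. This did not pass the test (adjusted p = 0.214, edgeR), but did with the replicate number as a block (adjusted p = 0.000895, edgeR) and by DESeq2 (adjusted p = 0.0286). Set against induced GFP-line myotubes, which do not include those libraries, Pax7 was higher by 0.80 ± 0.19 in induced msx2-line myotubes (adjusted p = 0.00483, edgeR), 1.75-fold by the ratio of means. Pax7 was thus higher after msx2 induction against both sets of myotubes, with the smaller ratio against the GFP line.

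Pax3 was measured at 4.69, 5.98 and 4.34 CPM in induced and 6.19, 7.22 and 5.91 CPM in uninduced msx2-line myotubes, ranges that overlap. Its log2 change was -0.37 ± 0.15, with a 95% interval from -0.67 to -0.07, and did not pass the test over all genes (adjusted p = 0.0813, edgeR). With the replicate number as a block it passed, at -0.37 ± 0.13 (adjusted p = 0.0310, edgeR), and it also passed without induced replicate 2 (-0.51 ± 0.16). The difference between the msx2 and GFP inductions was -0.33 ± 0.22 (adjusted p = 0.355, edgeR). Whether Pax3 and Pax7 differed from one another in their change was not tested.

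Sox8 was measured at 4.39, 5.20 and 5.94 CPM in induced and 0.549, 1.35 and 0.903 CPM in uninduced msx2-line myotubes. Its rise was 2.43 ± 0.25 on the log2 scale, 5.54-fold by the ratio of means, from 78 to 403 reads over 3 libraries each. In the GFP line Sox8 stood at 0.506 to 0.824 CPM without and 0.420 to 0.756 CPM with doxycycline. The inductions differed by 2.68 ± 0.44 (adjusted p = 0.000477, edgeR), and Sox8 after doxycycline was 8.59-fold higher in the msx2 than in the GFP line. The level of 5.18 ± 0.774 CPM (n = 3) was close to the 5.99 ± 0.976 CPM (n = 2) of msx2-line myoblasts, with overlapping libraries and a log2 difference of -0.21 ± 0.23 (adjusted p = 0.420, edgeR, 95% interval -0.66 to 0.25).

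Sox8 also differed between the lines before induction. Myoblasts of the msx2 line had 6.68 and 5.30 CPM and those of the GFP line 1.40 and 2.05 CPM, a difference of 1.79 ± 0.29 on the log2 scale (adjusted p = 0.00076, edgeR). It was the 1 gene of the 10 called between myoblasts of the lines, against 16.3% of all tested genes, 9.09% higher and 7.24% lower in the msx2 line. In the same libraries Msx2 stood at 16.8 and 16.4 CPM in the msx2 line and 1.59 and 1.28 CPM in the GFP line, the 12 myotube markers summed to 1274 to 1283 CPM and 444 to 459 CPM, and the 11 markers of fibroblasts and mesenchyme to 350 to 375 CPM and 238 CPM. The part of either in the Sox8 difference was not tested.

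Sox9 rose from 17.3, 18.7 and 15.5 CPM to 47.7, 40.6 and 42.7 CPM in the msx2 line, while in the GFP line all 6 myotube libraries lay between 16.0 and 20.3 CPM. The inductions differed by 1.39 ± 0.14 on the log2 scale (adjusted p = 7.9e-06, edgeR), and the induced lines by 1.27 ± 0.10. Sox9 in induced msx2-line myotubes was above its level in msx2-line myoblasts, 32.0 and 29.3 CPM, by 0.51 ± 0.11 (adjusted p = 0.000493, edgeR), with no overlap. Tbx3 went further in the same way. It was measured at 15.9, 13.7 and 16.9 CPM in induced and 3.84, 4.23 and 3.98 CPM in uninduced msx2-line myotubes, a rise of 1.94 ± 0.16, 3.86-fold by the ratio of means. Tbx3 in the GFP line stood at 3.79, 4.50 and 4.35 CPM without and 5.76, 5.00 and 3.31 CPM with doxycycline, and the inductions differed by 1.79 ± 0.23 (adjusted p = 6.3e-05, edgeR). Compared with msx2-line myoblasts, Tbx3 was higher by 1.15 ± 0.17 (adjusted p = 1.8e-05, edgeR).

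Klf4 and Sox11 were the 2 genes that fell on induction after having risen with differentiation. Klf4 was measured at 19.9, 21.4 and 24.9 CPM in induced and 37.9, 33.9 and 46.4 CPM in uninduced msx2-line myotubes, a fall of 0.84 ± 0.14 (adjusted p = 0.000395, edgeR). The GFP-line myotubes had 35.1 to 49.4 CPM without and 37.6 to 46.7 CPM with doxycycline, and the inductions differed by -0.85 ± 0.20 (adjusted p = 0.00862, edgeR). Klf4 stayed above its level in msx2-line myoblasts by 0.73 ± 0.17.

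Sox11 was measured at 122, 99.3 and 129 CPM in induced and 187, 187 and 216 CPM in uninduced msx2-line myotubes, with no overlap. Its fall was 0.75 ± 0.17 on the log2 scale (adjusted p = 0.00386, edgeR), and induced msx2-line myotubes lay below induced GFP-line ones by 0.75 ± 0.17 as well. The GFP-line myotubes were widely spread, at 154, 253 and 202 CPM without and 158, 233 and 198 CPM with doxycycline. The difference between inductions, -0.70 ± 0.24, was not called (adjusted p = 0.0595, edgeR). It was called by DESeq2 (adjusted p = 0.0154) and without replicate 2 of the uninduced or replicate 1 of the induced GFP-line myotubes (adjusted p = 0.0117 and 0.0236, edgeR). Against msx2-line myoblasts Sox11 remained higher by 0.60 ± 0.19 (adjusted p = 0.0118, edgeR), a call that was lost without myoblast replicate 1 (adjusted p = 0.0714).

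Sox4, Twist1 and Twist2 did not pass the test on induction. Sox4 was measured at 18.4, 26.1 and 21.8 CPM in induced and 15.2, 23.9 and 20.3 CPM in uninduced msx2-line myotubes, overlapping ranges, with a log2 change of 0.15 ± 0.14 and a 95% interval from -0.11 to 0.42. Twist2 had 2.20, 2.83 and 1.99 CPM in induced and 1.80, 2.42 and 1.84 CPM in uninduced libraries, with a change of 0.21 ± 0.17 and an interval from -0.14 to 0.55. Twist1 had 0.972, 3.66 and 2.45 CPM in induced and 1.45, 4.19 and 2.93 CPM in uninduced libraries, so that replicate 1 was lowest and replicate 2 highest in both groups. Its change was -0.30 ± 0.38, with an interval from -1.03 to 0.44. Between same-numbered libraries Sox4 and Twist2 were higher in 3 of 3 induced libraries and Twist1 lower in 3 of 3. With the replicate number as a block the changes were 0.15 ± 0.11 for Sox4, 0.20 ± 0.17 for Twist2 and -0.30 ± 0.34 for Twist1, and none passed (adjusted p = 0.325, 0.398 and 0.534, edgeR). The 6 GFP-line myotube libraries held 20.0 to 22.9 CPM of Sox4, 2.08 to 3.12 CPM of Twist1 and 1.75 to 2.44 CPM of Twist2, with overlap between libraries with and without doxycycline. All 3 genes stayed below msx2-line myoblasts, at log2 differences of -2.25 ± 0.14 for Sox4, -2.34 ± 0.37 for Twist1 and -3.05 ± 0.16 for Twist2.

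**Figure D3:**
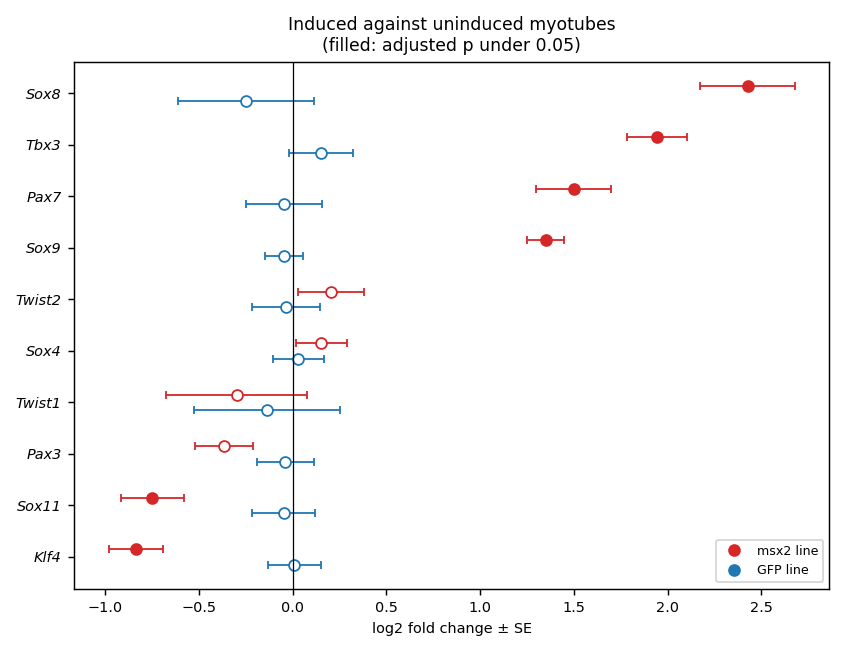
Log2 fold change ± SE of induced against uninduced myotubes for the 10 genes, by line, with filled points where the adjusted p was under 0.05. Sox8, Tbx3, Pax7 and Sox9 lie between 1.35 and 2.43 in the msx2 line and Klf4 and Sox11 at -0.84 and -0.75, while all GFP-line points are open and lie between -0.25 and 0.15.

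The difference between the 2 inductions was called for 5 of the 10 genes, 4 higher and 1 lower, where 17.9% of all tested genes were called, 9.15% higher and 8.78% lower. Between the induced lines 6 of the 10 were called, 4 higher and 2 lower, against 35.3% of all tested genes, 17.6% higher and 17.8% lower. Between uninduced myotubes of the lines edgeR called none of the 10, against 0.0616% of all genes, 0.00616% higher and 0.0554% lower. Of the 10, 1 gene, Pax7, had an unadjusted p under 0.05 and was called by DESeq2. Induced msx2-line myotubes differed from msx2-line myoblasts in 9 of the 10 genes, with 4 higher, Tbx3, Klf4, Sox11 and Sox9, and 5 lower, Pax7, Twist2, Twist1, Sox4 and Pax3, against 80.9% of all tested genes, 42.4% higher and 38.4% lower.

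**Figure D4:**
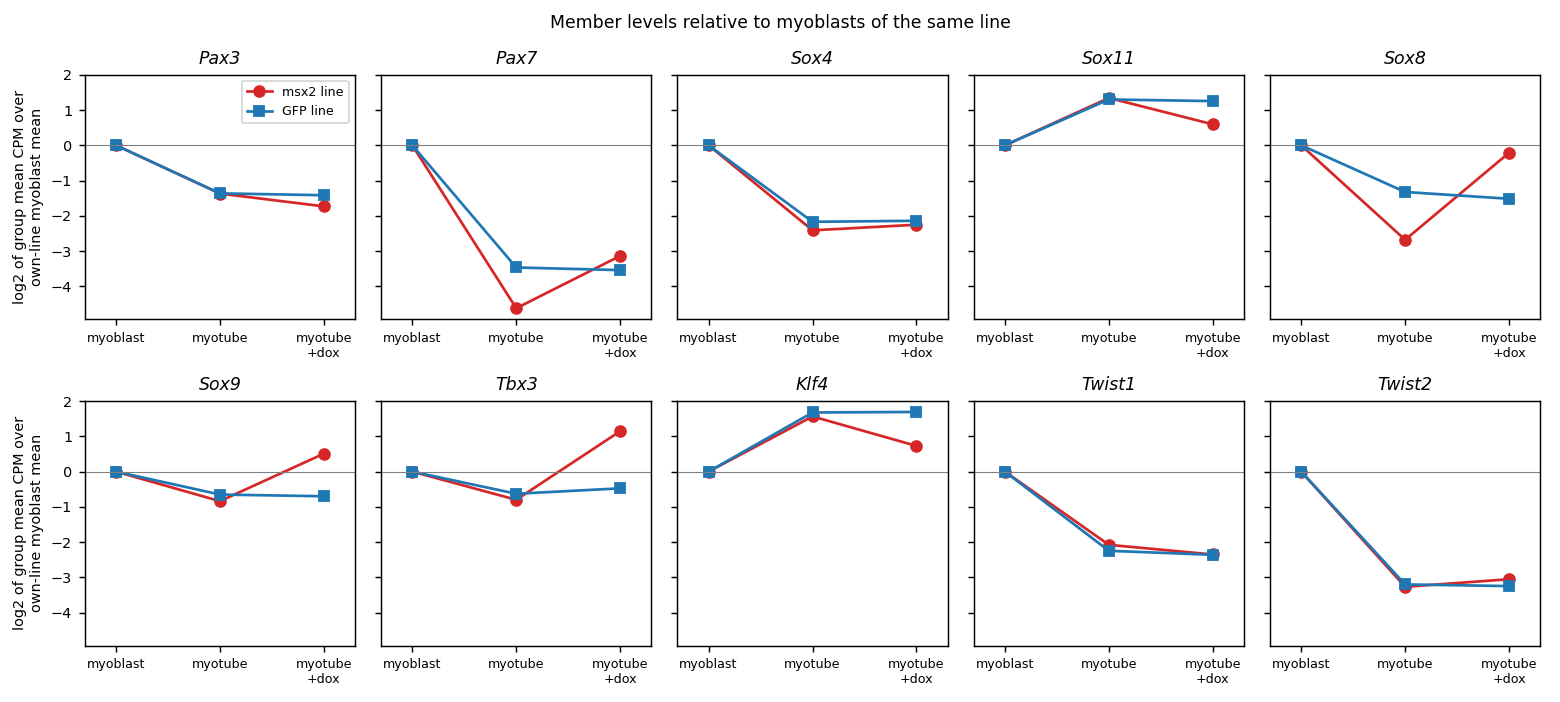
Log2 of the group mean CPM over the mean of myoblasts of the same line, for the 10 genes in both lines, with myoblasts at 0 and no error drawn. After doxycycline the msx2 line lay above the GFP line for Pax7, Sox8, Sox9 and Tbx3 and below it for Klf4 and Sox11, and Sox9 and Tbx3 crossed the myoblast level.

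Levels were compared between genes after division by exon length from GENCODE vM21, as CPM per kb. In msx2-line myoblasts the order ran from Sox4 at 22.0 CPM per kb, Pax7 at 13.9 and Sox11 at 9.32 through Sox9 and Twist1, both at 7.41, Twist2 at 6.13 and Klf4 at 4.37 to Pax3 at 2.69, Sox8 at 1.92 and Tbx3 at 1.06. Sox9 and Twist1 did not differ beyond their SD. In uninduced msx2-line myotubes Sox11 led at 23.6 CPM per kb, followed by Klf4 at 12.9, Sox9 at 4.15 and Sox4 at 4.13, with the other 6 genes between 0.300 for Sox8 and 1.75 for Twist1. In this group Sox9 and Sox4, Twist1 and Pax3, and Twist2, Tbx3 and Pax7 were neighbours that did not differ beyond their SD. In induced msx2-line myotubes the order was Sox11 at 14.1, Sox9 at 10.6, Klf4 at 7.24, Sox4 at 4.61 and Tbx3 at 2.34 CPM per kb, above Sox8 at 1.66, Pax7 at 1.58, Twist1 at 1.45, Pax3 at 0.809 and Twist2 at 0.738. Each of these last 5 overlapped its neighbour within 1 SD. In GENCODE vM21, exons of an antisense gene overlap Sox4, Sox8, Tbx3 and Twist2, and since the strand setting of the counts is not given, reads of those 4 genes and their antisense partners cannot be told apart.

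Family relatives of the 10 genes and genes that work with them were counted over the same msx2 induction, where 16.2% of all tested genes rose and 16.3% fell. Counts with the replicate number as a block are added where they differ. Of 6 tested Pax relatives none was called by edgeR, none had an unadjusted p under 0.05 and DESeq2 called none. Of 5 tested Sox relatives 1 rose: Sox12, the third SoxC gene, from 12.2 to 16.1 CPM (0.40 ± 0.09). With the block 1 rose and 1 fell. Of 14 tested Klf relatives 2 fell and none rose: Klf5 from 90.0 to 35.2 CPM (-1.35 ± 0.09) and Klf6 from 69.6 to 53.0 CPM (-0.40 ± 0.08). With the block 2 Klf relatives rose and 2 fell. Of 13 tested T-box relatives 3 rose, 2 fell and 8 were not called, or 3 rose and 3 fell with the block. Tbx1, a T-box factor of pharyngeal and head muscle progenitors, rose from 14.6 to 68.2 CPM (2.23 ± 0.18), and Tbx10 rose from 0.183 to 0.747 CPM (1.98 ± 0.39). Tbx15 fell from 249 to 86.7 CPM (-1.52 ± 0.11) and Tbx18 from 37.5 to 14.3 CPM (-1.39 ± 0.11). None of these named genes was called in the GFP line, where the adjusted p was 1 for each by edgeR.

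Of 13 tested basic helix-loop-helix partners of Twist and other mesenchymal factors, 4 rose and 6 fell, or 4 and 7 with the block, where 16.2% of all tested genes rose and 16.3% fell. Id2, an inhibitor that binds E-proteins, rose from 53.5 to 83.8 CPM (0.65 ± 0.14), and the E-protein gene Tcf3 rose by 0.32 ± 0.07. The E-protein gene Tcf4 fell from 150 to 87.5 CPM (-0.78 ± 0.08), and Zeb2, a zinc-finger repressor, fell by 0.53 ± 0.08. Among 23 tested genes of muscle stem and progenitor cells 5 rose and 7 fell, or 6 and 10 with the block. Heyl, a Notch target, rose from 5.74 to 50.2 CPM (3.12 ± 0.08), and Dag1, which encodes dystroglycan, rose by 0.75 ± 0.06. Megf10, a receptor of satellite cells, fell from 545 to 174 CPM (-1.64 ± 0.14), and Spry1, an inhibitor of growth factor signalling, fell from 37.1 to 15.7 CPM (-1.24 ± 0.11).

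Of 15 tested cartilage genes, chosen because Sox9 acts on many of them, 2 rose and 1 fell. Over all tested genes 16.2% rose and 16.3% fell. Comp, a cartilage matrix protein, rose from 1.34 to 4.45 CPM (1.72 ± 0.27) and Col9a3, a collagen IX chain, from 1.74 to 4.42 CPM (1.33 ± 0.21). Hapln1, a link protein of cartilage matrix, fell by 0.23 ± 0.08, and 12 were not called. With the block 3 cartilage genes rose and 2 fell. The median log2 changes of the lists were 0.11 for Pax, -0.12 for Sox, -0.13 for Tbx and -0.06 for Klf relatives, -0.25 for Twist partners, -0.21 for muscle progenitor genes and 0.01 for cartilage genes, against -0.01 over all tested genes.

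**Figure D5:**
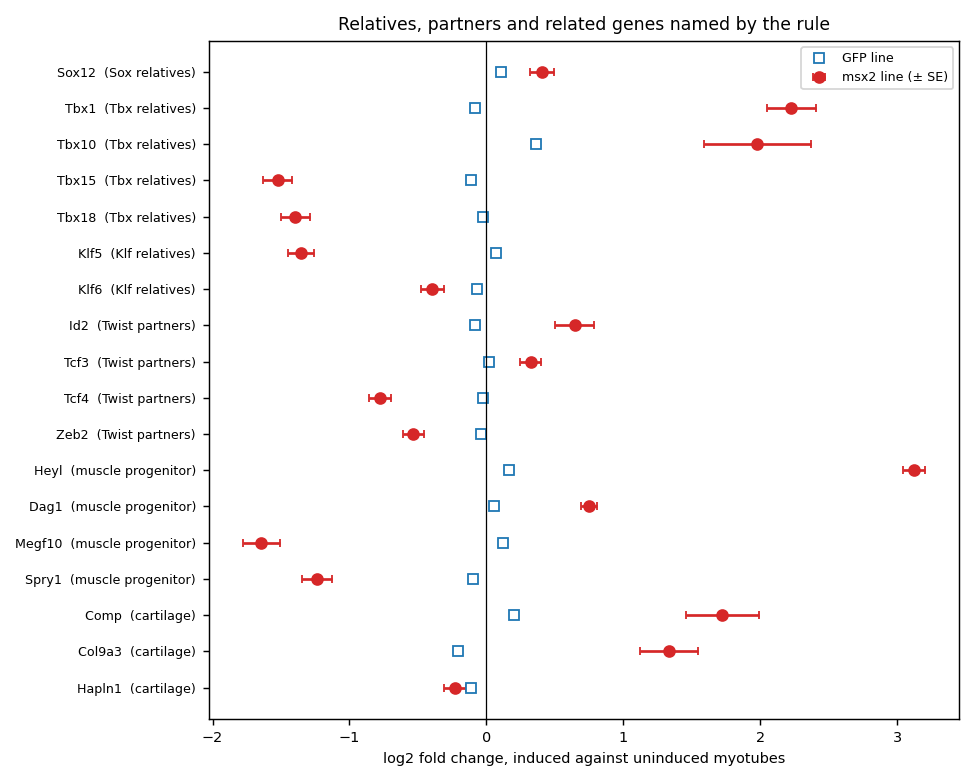
Log2 fold change on doxycycline of the 18 related genes named by the rule, with filled circles ± SE for the msx2 line and open squares for the GFP line. The msx2-line values run from -1.64 for Megf10 to 3.12 for Heyl, and the GFP-line values from -0.20 for Col9a3 to 0.36 for Tbx10.

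Markers of other cells were set beside these changes. In msx2 induction 16.2% of all tested genes rose and 16.3% fell. The 15 markers of cycling cells are genes that residual myoblasts would carry. They summed to 168 to 190 CPM in uninduced and 155 to 214 CPM in induced msx2-line myotubes, against 2589 to 2620 CPM in myoblasts. Kif11 alone averaged 105 CPM in uninduced and 96.1 CPM in induced msx2-line myotubes, and 224 CPM in myoblasts. The next highest marker in these myotubes, Tpx2, averaged 12.5 CPM uninduced and 14.1 CPM induced. The myotube sums thus rest largely on Kif11 and do not show whether the other markers varied. The median log2 change of the 15 on induction was 0.17. EdgeR called none of the 15 on induction, 2 had an unadjusted p under 0.05 and DESeq2 called 1. With the replicate number as a block edgeR called 1 of them lower. The 12 myotube markers summed to 30033 to 35155 CPM uninduced and 15508 to 18845 CPM induced in the msx2 line, and 7 of the 12 fell. After doxycycline the GFP-line sums were 30115 to 35826 CPM. The part of this lower sum in the changes of Pax7, Sox8, Sox9 and Tbx3 was not tested.

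The 11 markers of fibroblasts and mesenchyme, cells in which Sox9, Tbx3 and the Twist genes are also active, summed to 44.2 to 59.4 CPM in uninduced and 83.4 to 106 CPM in induced msx2-line myotubes. The 6 GFP-line myotube libraries lay between 44.9 and 62.1 CPM. Myoblasts had more, 350 to 375 CPM in the msx2 line and 238 CPM in the GFP line, so the sum does not separate fibroblasts from myoblasts. In msx2-line myoblasts Pdgfrb averaged 251 CPM and Fbln1 82.3 CPM. With differentiation in the msx2 line 3 of 9 tested fell and 5 rose. On msx2 induction 2 of 9 tested rose, against 16.2% of all tested genes. They were Pdgfrb, a growth factor receptor, from 16.0 to 50.7 CPM (1.66 ± 0.15) and Ly6a from 4.95 to 8.93 CPM (0.83 ± 0.23). The other 7 were not called. Among them Pdgfra stood at 14.6 and 14.5 CPM, Dcn at 1.35 and 1.16 CPM and Fbln1 at 6.05 and 8.29 CPM. Tcf21 and Lum had too few reads to test. Tcf21 had no reads in uninduced msx2-line myotubes and stood at 0.0259 CPM after induction, and Lum at 0.0563 and 0.0769 CPM. The part of these markers in the rises was not tested.

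The 10 markers of neural crest and Schwann cells, where Sox8 and Sox9 are expressed with Sox10, summed to 234 to 240 CPM uninduced and 189 to 204 CPM induced. Of 7 tested 1 rose and 1 fell, where 16.2% of all tested genes rose and 16.3% fell. Ngfr rose from 1.46 to 5.49 CPM and Erbb3 fell from 113 to 81.1 CPM, while Sox10 stood at 0.0341 and 0.253 CPM. With the block 1 rose and 2 fell. The 8 endothelial markers summed to 32.9 to 38.3 CPM and 32.7 to 34.9 CPM, and of 6 tested none was called by edgeR or DESeq2 or had an unadjusted p under 0.05. The 7 leukocyte markers summed to 24.3 to 27.7 CPM uninduced and to 26.3 to 27.996 CPM induced, with Csf1r rising from 0.719 to 6.03 CPM and Itgam falling from 20.9 to 16.5 CPM among 5 tested, or 2 higher and 1 lower with the block. The part of these genes in the changes of the 10 factors was not tested.

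The genes whose log2 CPM followed each factor most closely over the 16 libraries are given by Pearson's r, as a description: libraries of a group share their condition, and myoblasts and myotubes stand far apart. Sox9 was followed most closely by Gramd4 (r = 0.978) and Bid (0.977), the latter a BH3-only apoptosis protein. Tbx3 was followed by Vps37b (0.969), of the ESCRT-I sorting complex, and Efhd2 (0.967), and Sox8 by Mad2l1bp (0.961) and Plod1 (0.959), a collagen lysyl hydroxylase. Klf4 was followed by Ammecr1 and Chn1 (both 0.986) and Sox11 by Sh3glb1 (0.970) and the splicing-factor kinase Srpk2 (0.964). Those of Pax7 were the kinase gene Camkk2 (0.990) and the ubiquitin ligase gene Traip (0.989), and those of Pax3 were the chemokine gene Cxcl12 and the isocitrate dehydrogenase gene Idh1 (both 0.989). Sox4 was followed by Stk24 (0.998) and Ptbp1 (0.996), Twist2 by Hmgn1 and Nudc (both 0.996) and Twist1 by Steap1 (0.987) and Pnp (0.982). Among the 10 factors themselves, r was 0.990 for Sox4 with Twist2, 0.963 for Pax7 with Twist2, 0.955 for Pax7 with Sox4 and 0.952 for Pax3 with Sox4. It was 0.946 for Sox9 with Tbx3, 0.934 for Sox11 with Klf4, 0.881 for Pax3 with Pax7 and 0.872 for Sox8 with Sox9, and -0.946 for Pax7 with Klf4. These pairs are examples, and other pairs had values between them. By Spearman's rho 1 of these 20 nearest genes, Traip, stayed among the nearest 2 of its factor.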

How the data were processed

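The 16 RNA-seq libraries were prepared with a strand-specific mRNA kit (500 ng of input RNA, 12 PCR cycles), per the labels' protocols. The deposited table holds unnormalized read counts for 19866 entries. TopHat2 2.0.11, SAMtools 0.1.19, edgeR 3.6.8 and mm9 are listed in the submitters' processing notes, with no roles. How reads were counted, with which annotation and strand setting, is not given in the sources used here. Left out were 67 entries lacking a symbol, with 0.0601 to 0.0878% of the counts.

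All libraries entered 1 model in edgeR 4.0.16 (limma 3.58.1, R 4.3.3) with a coefficient for each group, after filterByExpr (minimum count 10) and TMM scaling, with robust quasi-likelihood tests and Benjamini-Hochberg adjustment over 16245 genes in each of 10 comparisons, at 0.05. SE is the unshrunken log2 fold change divided by the square root of F. Intervals are 1.96 SE either side.

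The rule for named genes took all 10 members and Msx2, for each member the 2 genes of at least 2 CPM with the highest Pearson r of log2 CPM (prior count 2), and from each related list the 2 rises and 2 falls, at most, of smallest adjusted p in msx2 induction. Genes named from the marker lists were chosen after their values were seen, and some marker genes are not reported here by name. Members and lists were chosen with earlier results of these data known. Exon lengths and GC content came from GENCODE vM21 (GRCm38), another build than mm9. Coordinates are given only for the printed promoters, in GRCm38.p6.

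Replicate numbers are the labels'. Same-numbered libraries deviated together from their group means in every pair of msx2 induction (correlations 0.394, 0.508 and 0.207), GFP induction (0.359, 0.414 and 0.453) and uninduced myotubes of the lines (0.177, 0.274 and 0.288), so blocked values are given there where they change a call. Replicates of myotubes and msx2-line myoblasts differed beyond sampling noise (chi-square per degree of freedom 10.5 to 31.3). The GFP-line myoblasts differed less (1.95) and were also summed as an alternative. Also tried were scaling by RLE or the upper quartile, testing without a filter or with 5 CPM in 3 libraries, only the groups compared, DESeq2 1.42.0, the replicate block and leaving out each library. Subtracting the median of each gene's GC decile was added after seeing the data.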

Additional observations from a re-analysis of the deposited data

Results flagged for a closer look

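A total of 6 results differed between the lines under the same contrast, by a test of the difference itself in edgeR.
On doxycycline, the change in the msx2 line exceeded that in the GFP line by 2.68 ± 0.44 on the log2 scale for Sox8 (adjusted p = 0.000477), 1.79 ± 0.23 for Tbx3 (6.3e-05), 1.55 ± 0.29 for Pax7 (0.00151) and 1.39 ± 0.14 for Sox9 (7.9e-06). Each of these 4 genes was higher in all 3 induced than in all 3 uninduced msx2-line libraries, and the GFP-line ranges overlapped. For Klf4 the difference was -0.85 ± 0.20 (adjusted p = 0.00862), with all 3 induced msx2-line libraries below the uninduced ones. The share of all tested genes whose libraries separate in this way was not counted. These 5 calls held when any 1 of the 12 myotube libraries was left out, with an adjusted p of at most 0.0279.

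On differentiation, the fall of Pax7 was larger in the msx2 than in the GFP line (-1.15 ± 0.28, adjusted p = 0.0226), with all myotube libraries below all myoblast libraries in both lines. Summing the 2 GFP-line myoblast libraries gave an adjusted p of 0.0908.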

How the results depend on the processing

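Under the alternatives 132 counts of called members stayed within 1.5 times the reported count and 13 did not. The 13 were from the difference of differentiations, with 2 members called with the replicate block, 0 with the GFP-line myoblasts summed and 0 to 2 when single libraries were left out (1 reported); uninduced myotubes between the lines, with 1 by DESeq2 and 1 with the replicate block (0 reported); and myoblasts between the lines, with 3 in a fit of only those groups and 2 with the replicate block (1 reported). The replicate numbers did not pair differentiation or myoblast libraries by their correlations. Beside the blocked results given for Pax3 and Pax7, the block called Sox8 in the difference of differentiations (adjusted p = 0.0435, edgeR) and Pax7 between myoblasts (0.000839), and changed no other call of a member. Member calls numbered 6 to 7 in msx2 induction and 5 to 6 in the difference of inductions when single libraries were left out. Fold changes kept direction and call in 870 instances, gained a call in 11, lost it in 10 and changed sign in 7. For the comparisons between the lines and the difference of differentiations these instances cover only chosen genes of the 10. GFP induction is left out of them. The 870 include the GC-decile values of the 10 genes. Those carry no test and were counted as kept where they moved by less than 1 SE. The sign changed, with no call, for Twist1 in msx2 induction (leave-one-out range -0.74 to 0.065) and in the difference of inductions (-0.60 to 0.20), for Sox4 in that difference (-0.028 to 0.28), and for Sox8 in induced myotubes against myoblasts with the 5 CPM filter (0.018). The cause was not tested. In msx2 induction RLE scaling called 2 Sox relatives, 1 higher and 1 lower. Over all genes, GFP induction had 10 calls by DESeq2, 9 with the block and 3 in a fit of only its groups (5 reported). Subtracting the median of a gene's GC decile left Pax7 at 1.38, Sox8 at 2.31, Sox9 at 1.39, Tbx3 at 1.82, Klf4 at -0.96 and Sox11 at -0.68. Depth limited Sox8 most, with 39 reads in the 3 induced GFP-line libraries.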

Other observations

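Over differentiation, 40.8% of all tested genes rose and 39% fell in the msx2 line, and 39.8% and 37.9% in the GFP line. Against that background, in the msx2 line 3 of 5 tested Sox relatives rose and 2 fell, 7 of 13 Tbx relatives rose and 4 fell, and 5 of 14 Klf relatives rose and 5 fell; in the GFP line the counts were 3 and 2, 5 and 3, and 5 and 6. Of 6 tested Pax relatives 4 rose in the msx2 line and 2 in the GFP line, and none fell. Their levels were low: of the 7 Pax relatives listed, 6 averaged under 1 CPM in msx2-line myoblasts and 6 in uninduced msx2-line myotubes. Of 15 cartilage genes 9 rose and 3 fell in each line, and Sox9 fell in both. Among the 3 that fell was the collagen gene Col2a1. It went from 12.0 to 1.22 CPM in the msx2 line and from 31.2 to 0.782 CPM in the GFP line. Of the 15 genes, 7 averaged under 1 CPM in msx2-line myoblasts and 9 in GFP-line myoblasts. Sox5 and Sox6 are counted both here and among the Sox relatives.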
